A study of Mus musculus with 6 samples.

Results

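The genes described here are 10 genes of the fat cell layer of the skin, found by their symbols in the series' single count table, where all 10 of them were among the 18482 genes listed. They are the adipokine genes Adipoq, Lep and Retn, the lipid droplet genes Plin1, Plin4 and Cidec, the lipase genes Pnpla2 and Lipe, and the transcription factor genes Pparg and Cebpa. RNA with a polyA tail was sequenced from whole ear skin of mice at postnatal day 21, with 3 libraries from control mice and 3 from lecko mice. The lecko mice are described as carrying a deletion of Kdr (Vegfr2), the gene of the main VEGF receptor of endothelium, restricted to lymphatic vessels. Whether the deletion kept to these vessels was not tested here. The control mice were littermates of the lecko mice. Both groups had been given tamoxifen, the drug that switches on an inducible Cre recombinase. The sources used here do not give the driver of the Cre, the tamoxifen schedule of these mice or the litter of each animal, so a p-value reflects the spread among the 6 samples only.

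White adipocytes lie in the lower dermis and store triglyceride in a single large droplet. PPARG and C/EBP alpha switch on the fat cell programme, perilipins and CIDEC coat and enlarge the droplet, the lipases ATGL (Pnpla2) and HSL (Lipe) release fatty acids from it, and the cell secretes adiponectin, leptin and, in mice, resistin. The regulators and lipases are also used by sebaceous glands, epidermis, muscle and other tissues, whereas adiponectin, leptin and perilipin 1 are classical products of fat cells. The libraries are bulk tissue, so fewer adipocytes and less RNA per adipocyte cannot be told apart.

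Depth was 17242921 to 17825135 estimated counts per library. Kdr was at 32.6, 31.3 and 38.5 CPM (counts scaled to library size) in controls 1 to 3 and at 9.76, 11.2 and 10.2 CPM in lecko 1 to 3, with each lecko library below each control (log2 fold change -1.72, adjusted p = 0.00026 by edgeR). Counts of 4 Y-linked genes were 4272 and 4564 in controls 2 and 3 and 4 to 21 in the other 4 libraries, so control 1 is the sole control of the same apparent sex as the lecko mice. Of 14856 genes with enough counts to be tested, 3 (0.0202%) passed an adjusted p of 0.05 by edgeR, and 1272 (8.56%) had an unadjusted p under 0.05.

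All 10 adipocyte genes had enough counts to be tested, with 76 reads in the thinnest case (Lep in control 3) and 4571 in the fullest (Cebpa in lecko 2). Set per kilobase of exon, the order of mean levels in control skin was Cebpa (96.1 CPM per kb), Pnpla2 (44.8), Adipoq (26.6), Plin4 (21.4), Cidec (13.8), Pparg (13.6), Lipe (7.46), Retn (7.06), Plin1 (4.06) and Lep (2.15). Cebpa and Pnpla2 stood above the others in every library. The genes most restricted to fat cells were spread over the scale, with Adipoq near the top and Plin1 and Lep at the bottom. Adipoq and Plin4 overlapped over the 6 libraries, at 22.7 to 34.1 and 17.7 to 23.0 CPM per kb. Cidec and Pparg overlapped too, at 10.1 to 16.6 and 11.9 to 15.4, as did Retn (4.56 to 11.2) with Cidec, Lipe (7.03 to 8.25) and Plin1 (3.001 to 5.52). Within every single library, however, Adipoq was above Plin4, and Retn was below Cidec and above Plin1. The order of Cidec and Pparg, and that of Retn and Lipe, changed between libraries. Pparg and Cidec changed places when the longest transcript was used as the length, at 15.2 and 14.1 CPM per kb in controls.

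**Figure D1:**
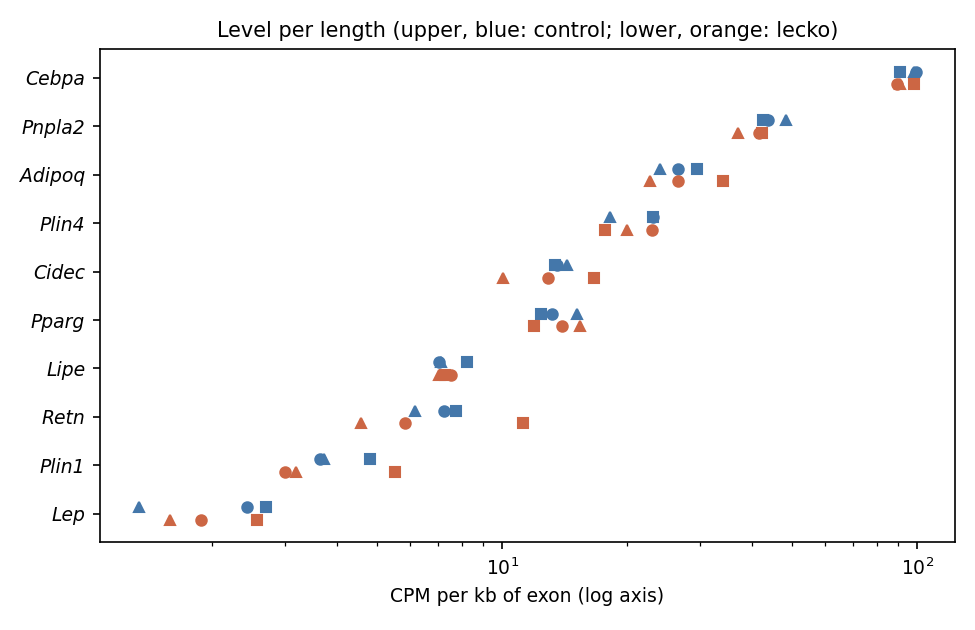
Level of each adipocyte gene in CPM per kilobase of exon (log axis), with 1 point per library (circle, square and triangle for replicates 1, 2 and 3, control in blue above and lecko in orange below). Cebpa lies between 89.5 and 99.2 in all 6 libraries, and Lep between 1.33 and 2.70.

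No adipocyte gene was called different between lecko and control skin. By the quasi-likelihood test of edgeR, adjusted over all genes, 0 of 10 passed, beside 0.0202% of all genes, and 0 of 10 had an unadjusted p under 0.05, against 8.56% of all genes tested. DESeq2 and limma-voom called 0 of 10 as well, where they called 0.191% and 0.0202% of all genes. The 10 log2 fold changes of lecko over control had a median of -0.05, beside 0.01 over all genes tested, and 3 of 10 were above 0, beside 51.9% of all genes. The groups overlapped in 9 of the 10 genes, the exception being Pnpla2, and 14.6% of all genes did not overlap.

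**Figure D2:**
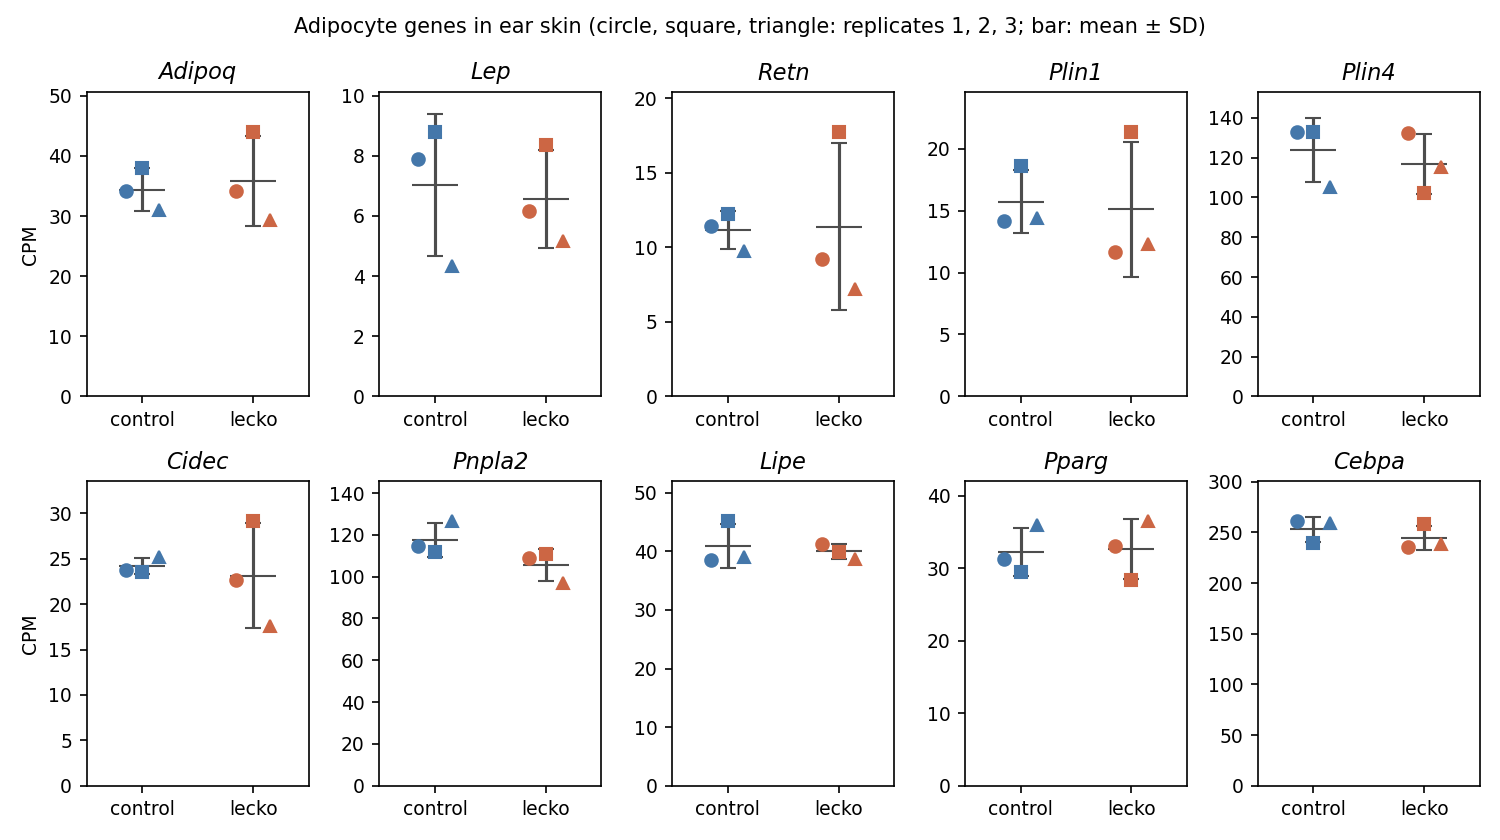
CPM of each adipocyte gene in the 3 control and 3 lecko libraries (circle, square and triangle for replicates 1, 2 and 3), with the mean and SD of each group as bars and each axis starting at 0. The groups overlap in every panel but that of Pnpla2, and lecko 2 (square) is the highest library for Adipoq, Retn, Plin1 and Cidec.

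Of the adipokines, Adipoq encodes adiponectin, a hormone that raises insulin sensitivity (chromosome 16, 23146536 to 23157968 in GRCm38.p6, plus strand). Adipoq was at 34.2, 38.0 and 30.9 CPM in controls 1 to 3 and at 34.2, 44.0 and 29.3 CPM in lecko 1 to 3. The lecko libraries held both the highest and the lowest value of this gene, on either side of all controls. Its means were 34.4 ± 3.53 and 35.9 ± 7.49 CPM (SD, n = 3 each), and its log2 fold change was 0.06 (SE 0.15) with an adjusted p of 0.929 by edgeR. The 95% interval ran from 0.816-fold to 1.33-fold.

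Retn encodes resistin, which in mice is made by fat cells and opposes insulin action (chromosome 8, 3655770 to 3659818, plus strand). Retn was at 11.4, 12.2 and 9.76 CPM in controls and at 9.20, 17.8 and 7.21 CPM in lecko 1 to 3. Lecko 2 was 2.46 times as high as lecko 3, while the 3 controls lay between these extremes. The log2 fold change of Retn was 0.03 (SE 0.33), with an adjusted p of 0.986 by edgeR and an interval of 0.583-fold to 1.79-fold. It fell on the other side of 0 with limma-voom (-0.07), and without lecko 2 it was -0.44 with an unadjusted p of 0.0243 and an adjusted p of 0.50 by edgeR.

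Lep encodes leptin, the hormone that reports fat stores to the brain (chromosome 6, 29060221 to 29073876, plus strand). Lep was at 7.90, 8.80 and 4.34 CPM in controls and at 6.15, 8.37 and 5.16 CPM in lecko libraries, from 76 to 153 reads. The controls covered the whole range, with controls 2 and 3 at its ends and all lecko libraries between them. Its log2 fold change was -0.10 (SE 0.29), with an adjusted p of 0.939 by edgeR and an interval of 0.589-fold to 1.49-fold. With so few reads, counting error alone came to a coefficient of variation (CV) of 9.17%.

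Among the lipid droplet genes, Plin1 encodes perilipin 1, which coats the droplet and holds the lipases off until a hormone signal arrives (chromosome 7, 79721164 to 79732904, minus strand). Plin1 was at 14.1, 18.6 and 14.4 CPM in controls and at 11.6, 21.4 and 12.3 CPM in lecko libraries. Lecko 1 and 3 lay below every control, and lecko 2 above every control. The log2 fold change was -0.06 (SE 0.25) with an adjusted p of 0.96 by edgeR, and without lecko 2 it was -0.39 with an unadjusted p of 0.0273 and an adjusted p of 0.509 by edgeR. Without that library 3 of the 10 genes, Retn, Plin1 and Pnpla2, had an unadjusted p under 0.05 by edgeR. The share of all genes tested there was 9%. That count of members was 1 without control 2 and 0 with any other single library left out. Lecko 2 was the highest library for Retn and Plin1, so leaving it out lowers their lecko means by construction.

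Cidec encodes a droplet protein that joins small droplets into the single large one of white fat (chromosome 6, 113424634 to 113435760, minus strand). Cidec was at 23.8, 23.6 and 25.2 CPM in controls, a narrow range, and at 22.6, 29.2 and 17.6 CPM in lecko libraries. Lecko 2 was again above and lecko 3 below all controls. The means were 24.2 ± 0.866 and 23.2 ± 5.78 CPM (SD, n = 3 each), and the log2 fold change was -0.06 (SE 0.16), adjusted p = 0.93 by edgeR.

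Plin4 encodes perilipin 4, which coats small new droplets (chromosome 17, 56100587 to 56109948, minus strand). Plin4 was at 133.0, 133.0 and 105.2 CPM in controls and at 132.5, 102.2 and 115.5 CPM in lecko libraries. Its lowest value was in lecko 2, the library where Plin1 and Cidec were highest. The log2 fold change was -0.08 (SE 0.12), with an adjusted p of 0.863 by edgeR.

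Of the lipases, Pnpla2 encodes ATGL, which makes the first cut in stored triglyceride (chromosome 7, 141455188 to 141460743, plus strand). Pnpla2 was at 114.5, 111.6 and 126.6 CPM in controls and at 108.9, 110.8 and 96.9 CPM in lecko libraries. It was the one member whose groups did not overlap, with 111.6 CPM as the lowest control and 110.8 CPM as the highest lecko value. The means were 117.6 ± 7.98 and 105.5 ± 7.54 CPM (SD, n = 3 each). The log2 fold change was -0.16 (SE 0.07), with an unadjusted p of 0.0598 and an adjusted p of 0.596 by edgeR, and the interval ran from 0.801-fold to 1.01-fold. Its unadjusted p by edgeR was 0.0469 without a filter on low counts, 0.0411 without control 2 and 0.0439 without lecko 2. It was above 0.05 in the other alternatives. By edgeR it was 0.207 without control 3, 0.202 without lecko 3 and 0.0996 with the replicate number as a block. With sex as a covariate the log2 fold change was -0.12. The adjusted p of Pnpla2 stayed at 0.411 or more over all alternatives.

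Skeletal muscle, which also uses Pnpla2, moved with this gene over the libraries. The summed level of 15 muscle genes was 8762, 8348 and 9396 CPM in controls and 7934, 7562 and 6238 CPM in lecko libraries. Control 3 was the highest and lecko 3 the lowest library for both, and only lecko 1 and lecko 2 changed places in the order. Muscle was not alone in this. The summed level of 12 blood and capillary endothelial genes put the 6 libraries in the same order as muscle did. It was 487, 485 and 498 CPM in controls and 436, 406 and 390 CPM in lecko libraries. All 15 muscle genes had a log2 fold change below 0, and 11 had an unadjusted p under 0.05 by edgeR, against 8.56% of all genes. The muscle list was chosen with earlier results of these data known. None of the 15 was called over all genes by edgeR, DESeq2 or limma-voom. Ryr1 (-0.34) and Cacna1s (-0.30), which carry the calcium signal of contraction, both had an adjusted p of 0.385 by edgeR. The part of muscle or of endothelium in the Pnpla2 difference was not tested.

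Lipe encodes hormone-sensitive lipase, which acts after ATGL (chromosome 7, 25379527 to 25398486, minus strand). Lipe was at 38.5, 45.2 and 39.0 CPM in controls and at 41.3, 40.0 and 38.7 CPM in lecko libraries. The lecko values lay close together and inside the control range. The log2 fold change was -0.03 (SE 0.08), adjusted p = 0.925 by edgeR, and the interval of 0.866-fold to 1.10-fold is the third narrowest of the 10.

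In both transcription factor genes the groups overlapped. Pparg, the nuclear receptor that drives fat cell formation, lies on chromosome 6 from 115360879 to 115490404 on the plus strand. Pparg was at 31.3, 29.5 and 36.0 CPM in controls and at 33.1, 28.4 and 36.5 CPM in lecko libraries. Its log2 fold change was 0.02 (SE 0.11), with an adjusted p of 0.969 by edgeR. Lecko 2 was its lowest and lecko 3 its highest library, the reverse of Adipoq, Retn and Cidec.

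Cebpa, the gene of C/EBP alpha, lies on chromosome 7 from 35119293 to 35121928 on the plus strand. Cebpa was at 261.4, 239.2 and 259.3 CPM in controls and at 236.0, 258.4 and 239.0 CPM in lecko libraries. The highest library was 1.11 times the lowest, the smallest such ratio of the 10 genes. The log2 fold change was -0.05 (SE 0.06), with an adjusted p of 0.835 by edgeR and an interval of 0.876-fold to 1.06-fold.

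**Figure D3:**
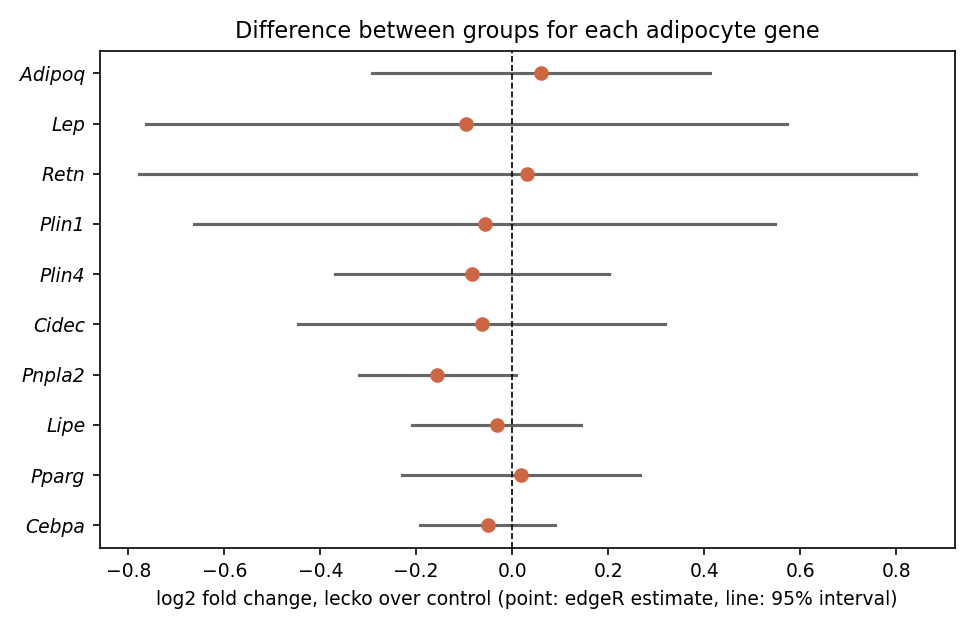
Log2 fold change of lecko over control for each adipocyte gene (point) with its 95% interval (line), from edgeR's fit over all genes, and a dashed line at 0. All 10 intervals include 0, and they run from -0.78 to 0.84 for Retn and from -0.19 to 0.09 for Cebpa.

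The 10 genes varied between animals to different degrees. The biological CV, edgeR's estimate of the spread between libraries of a group beyond counting error, was 28.1% for Retn, 23.9% for Lep and 21.7% for Plin1. These values lie above those of 97.8%, 96.4% and 95.2% of all genes tested, whose median was 9.30%. Cidec (14.6%), Adipoq (13.3%), Plin4 (11.1%) and Pparg (10.2%) were also above that median. Lipe (7.70%), Pnpla2 (7.55%) and Cebpa (6.86%) were below it. Spread was therefore widest in Retn, Lep and Plin1 and narrowest in the lipases and Cebpa. The 3 widest were also the lowest of the 10 in CPM, with control means of 11.1 for Retn, 7.01 for Lep and 15.7 for Plin1. The comparison with all genes was not matched for level, so gene class and level cannot be told apart here.

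Lecko 2 was the highest of the 6 libraries for 4 of the 10 genes, Adipoq, Retn, Plin1 and Cidec, beside 16.4% of all genes tested. Relative to the mean of the other 5 libraries, lecko 2 was 1.78 times as high for Retn, 1.503 for Plin1, 1.32 for Adipoq, 1.29 for Cidec and 1.29 for Lep. In the same comparison it stood at 1.05 for Cebpa, 0.992 for Pnpla2, 0.986 for Lipe, 0.853 for Pparg and 0.825 for Plin4. Lecko 3 was the lowest library for Adipoq, Retn, Cidec and Pnpla2. The lecko group therefore held both ends of the range for Adipoq, Retn and Cidec, while for Lep the controls did.

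**Figure D4:**
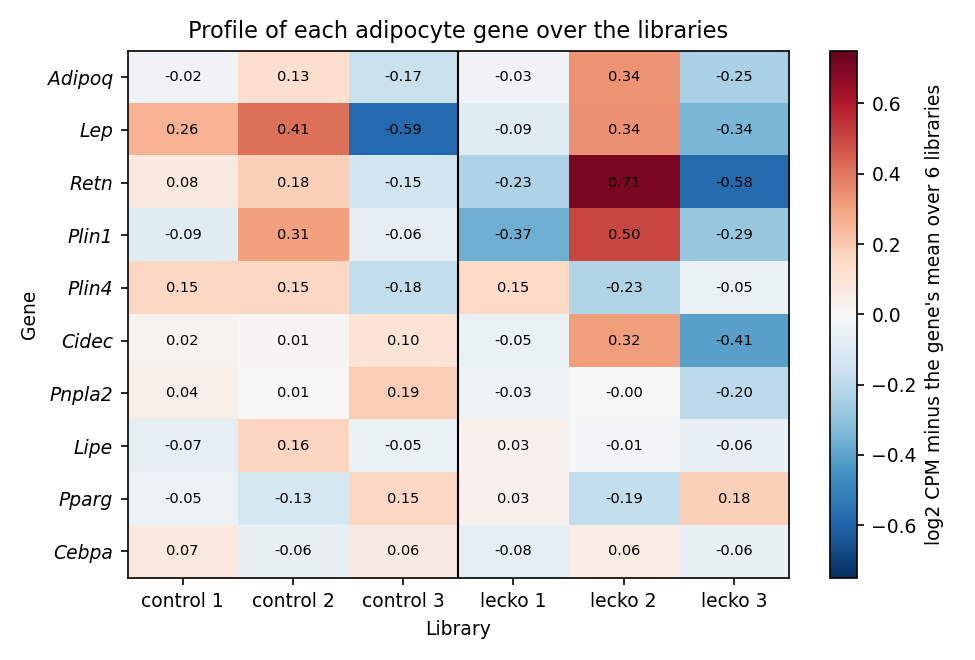
Log2 CPM of each adipocyte gene in each library minus the gene's mean over the 6 libraries (red above, blue below, with the value in each cell; the line divides control from lecko). Retn reaches 0.71 in lecko 2 and -0.58 in lecko 3, while Cebpa stays between -0.08 and 0.07.

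A ratio within a library does not depend on how libraries are scaled. Set against Plin1 in the same library, the log2 ratio of Adipoq was 1.27, 1.02 and 1.10 in controls and 1.55, 1.04 and 1.24 in lecko libraries. That of Lep was -0.83, -1.07 and -1.70 in controls and -0.91, -1.34 and -1.24 in lecko libraries. Over the 9 such ratios, lecko minus control differences ran from -0.05 for Pnpla2 to 0.15 for Adipoq, and two-sided exact permutation p-values from 0.6 to 1, all adjusted to 1, where 0.1 is the smallest that 3 against 3 allows. With 1 library left out in turn, 8 of the 9 differences took both signs, the exception being Adipoq (0.01 without lecko 1 to 0.26 without lecko 2). All 9 ratios share the denominator Plin1, whose own log2 fold change was -0.39 by edgeR without lecko 2, its highest library. The differences are therefore not independent of each other. Leaving out lecko 2 gave the highest value for Plin4 (0.39), Cidec (0.10), Pnpla2 (0.19), Lipe (0.35), Pparg (0.49) and Cebpa (0.29). The lowest values of these were -0.24 for Plin4, -0.15 for Cidec, -0.24 for Pnpla2 and -0.11 for Lipe without lecko 1, -0.09 for Pparg without lecko 3 and -0.12 for Cebpa without control 2. The difference of Lep ran from -0.21 without control 3 to 0.23 without control 1, and that of Retn from -0.06 without lecko 2 to 0.19 without lecko 3.

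The library profiles of the 5 genes that varied most over the 6 libraries correlated pairwise at 0.42 (Lep and Cidec) to 0.95 (Adipoq and Retn). Whether they share regulation was not tested. The promoters of these 5 genes of fat cell products are printed. Each is the 250 bases before a start site, from RefSeq on GRCm38.p6, read 5′ to 3′ on the gene's strand, and all 10 genes had at least 1 such window. Capitals mark matches on either strand to the C/EBP motif TTGCNNAA and to the CCAAT box. The windows are chr16:23146286-23146535 (plus strand) for Adipoq, chr6:29059971-29060220 (plus) for Lep, chr8:3655520-3655769 (plus) for Retn, chr7:79732777-79733026 (minus) for Plin1 and chr6:113434765-113435014 (minus) for the inner of the 2 Cidec starts. The Plin1 and Cidec windows belong to starts inside the gene spans given above, so the Plin1 window lies in part and the Cidec window as a whole within its gene. The window of the outer Cidec start, chr6:113435761-113436010 (minus), is not printed and holds neither motif.
Adipoq: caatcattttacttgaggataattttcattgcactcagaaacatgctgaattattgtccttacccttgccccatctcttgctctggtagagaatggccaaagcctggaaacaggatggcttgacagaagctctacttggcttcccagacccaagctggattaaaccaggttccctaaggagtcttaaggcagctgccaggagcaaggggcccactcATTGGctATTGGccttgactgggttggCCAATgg
Lep: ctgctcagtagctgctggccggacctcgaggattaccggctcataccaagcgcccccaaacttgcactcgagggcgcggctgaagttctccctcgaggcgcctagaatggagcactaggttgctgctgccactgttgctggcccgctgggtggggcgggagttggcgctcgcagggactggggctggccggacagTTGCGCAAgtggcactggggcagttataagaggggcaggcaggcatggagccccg
Retn: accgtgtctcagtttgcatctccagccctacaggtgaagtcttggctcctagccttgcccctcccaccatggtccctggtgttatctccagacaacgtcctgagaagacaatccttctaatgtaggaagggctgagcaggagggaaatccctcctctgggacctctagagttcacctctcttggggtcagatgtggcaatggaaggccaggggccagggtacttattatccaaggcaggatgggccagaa
Plin1: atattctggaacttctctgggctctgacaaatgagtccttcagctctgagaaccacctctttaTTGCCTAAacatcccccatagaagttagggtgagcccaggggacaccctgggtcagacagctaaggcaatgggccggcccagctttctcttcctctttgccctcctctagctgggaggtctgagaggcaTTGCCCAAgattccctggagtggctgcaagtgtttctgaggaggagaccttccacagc
Cidec: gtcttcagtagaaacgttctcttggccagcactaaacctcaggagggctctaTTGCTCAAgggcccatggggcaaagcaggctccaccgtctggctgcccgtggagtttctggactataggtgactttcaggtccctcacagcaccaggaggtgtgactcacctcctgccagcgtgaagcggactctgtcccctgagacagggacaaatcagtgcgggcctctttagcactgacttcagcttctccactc

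The C/EBP motif was in 4 of the 14 windows of the 10 genes, 1 each of Lep, Plin1, Cidec and Pparg, beside 9.56% of all 32851 promoter windows. In Lep it begins 55 bases before the start and reads the same on both strands, and in Plin1 there are matches at 187 and 58 bases before the start. Adipoq holds 3 CCAAT boxes, at 34, 27 and 7 bases, and this motif was in 4 of the 14 windows (of Adipoq, Plin4 and Pparg) and in 33.8% of all windows. The Retn window holds neither motif. The PPAR response element DR1, a repeat of the half-site AGGTCA after 1 free base, searched on both strands with up to 2 mismatches, was in 0 of the 14 windows of the 10 genes and in 3.24% of all windows. A match is a description of these letters and says nothing about binding.

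Other genes of the fat cell programme were taken from lists by role. Of their 116 tested genes, 0 passed over all genes by edgeR, DESeq2 or limma-voom, and 8 had an unadjusted p under 0.05 by edgeR, beside 8.56% of all genes. Among 14 other secreted adipocyte products tested, 6 were above and 8 below 0, with a median log2 fold change of -0.01. Apln, the gene of the vessel-acting peptide apelin, had means of 11.4 ± 0.390 CPM (controls) and 8.64 ± 1.39 CPM (lecko), each with its SD over n = 3, log2 -0.40, adjusted p = 0.511 by edgeR. Angptl4, an inhibitor of lipoprotein lipase, was at 26.9, 23.6 and 33.7 CPM in controls and at 23.0, 8.54 and 16.6 CPM in lecko libraries, log2 -0.81, adjusted p = 0.608 by edgeR. Both genes had groups that did not overlap, as 14.6% of all genes did. Cfd, the adipsin gene, was named after its values were seen and was highest in lecko 2, at 36.2 CPM, with 23.3 to 35.2 CPM in the other libraries.

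Of 22 genes of fatty acid uptake, glucose uptake and lipid synthesis, 10 were above and 12 below 0, with a median of -0.02, and 1 in each direction had an unadjusted p under 0.05 by edgeR. The lower one was Slc27a1, a fatty acid transport protein of fat and muscle, with means of 64.5 ± 4.70 CPM (controls) and 54.9 ± 2.03 CPM (lecko), SD over n = 3 each, log2 -0.23. The higher one was Acaca, which makes the building block of fatty acids, at 108 ± 6.38 and 123 ± 8.60 CPM (SD, n = 3 each), log2 0.19. Their adjusted p-values were 0.498 and 0.53 by edgeR.

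Of 13 other lipid droplet genes tested, 5 were above and 8 below 0, with a median of -0.01. Plin5, the perilipin of tissues that burn fat, had a log2 fold change of -0.51 (adjusted p = 0.575 by edgeR) and Plin2, the perilipin of most cell types, 0.30 (adjusted p = 0.608 by edgeR). Plin5 had means of 2.64 ± 0.263 CPM (controls) and 1.85 ± 0.422 CPM (lecko), SD over n = 3 each, without overlap. Plin2 was at 149 ± 11.3 and 183 ± 34.4 CPM (SD, n = 3 each), with overlap. The 5 perilipin genes of mouse thus had estimates of both signs and no call.

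Of 15 other genes of lipolysis, 6 were above and 9 below 0 (median -0.03), with Npr1, the natriuretic peptide receptor, at -0.18. Of 10 genes of adipokine reception and insulin signalling, 4 were above and 6 below 0 (median -0.02), with the leptin receptor gene Lepr at 0.14 and Cap1 at 0.08. Of 20 other transcription regulators of fat cells, 5 were above and 15 below 0 (median -0.03), with Ppargc1a, a coactivator of mitochondrial genes, at -0.30 and the retinoid receptor gene Rxrg at -0.39. In these 3 lists 0 genes had an unadjusted p under 0.05 by edgeR. Adjusted p-values of the named genes were 0.588 to 0.706 by edgeR.

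Of 13 progenitor and preadipocyte genes, 9 were above and 4 below 0, with a median of 0.07. Pdgfra, a growth factor receptor of fat progenitors and of fibroblasts, had a log2 fold change of 0.23, and Dpp4, a surface marker of early progenitors, 0.22. Dpp4 was at 19.7, 21.1 and 18.6 CPM in controls and at 23.2, 22.8 and 23.0 CPM in lecko libraries, and both genes had an adjusted p of 0.53 by edgeR. Pdgfra overlapped, at 117 to 144 CPM in controls and 140 to 162 CPM in lecko skin.

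Of 10 brown and beige fat genes tested, 5 were above and 5 below 0, with a median of 0.02, and Cox8b (log2 -0.36) and Tmem26 (log2 0.26) had the smallest p, adjusted to 0.552 and 0.578 by edgeR. Ucp1, the defining heat-producing protein of brown fat, was named after its values were seen. It had at most 5 reads in a library and was not tested.

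Markers of other cells of the ear gave these values beside the adipocyte genes, where 29 of 99 tested genes had an unadjusted p under 0.05 by edgeR, against 8.56% of all genes. Of these 29, 11 were muscle and 8 blood and capillary endothelial genes. The lists were chosen with earlier results of these data known, so the 2 shares are not an independent comparison. Over all genes edgeR and limma-voom called 0 of the 99, and DESeq2 called Ccl21a alone (adjusted p = 0.0115). Sebaceous gland genes, whose cells share much lipid chemistry with fat, were below 0 in 6 of 12 (median 0.02), with Mc5r at -0.35 and Elovl4 at -0.16, and their summed level was 3462 to 3988 CPM in controls and 3002 to 3898 CPM in lecko skin. It was lowest in lecko 2, the library with the highest Adipoq, Retn, Plin1 and Cidec. Blood and capillary endothelial genes were below 0 in 12 of 12 (median -0.25, Cldn5 -0.46, Gpihbp1 -0.54), and summed to 485 to 498 CPM in controls and 390 to 436 CPM in lecko skin. Lymphatic endothelial genes were below 0 in 5 of 7 (median -0.11, Ccl21a -0.58, Reln -0.27), with sums of 359 to 409 and 311 to 338 CPM. Prox1 (0.18) and Pdpn (0.20) were above 0. Ccl21a was the most abundant of the 7, with a control mean of 144 CPM and a lecko mean of 96.0 CPM. Mmrn1 came next, with means of 66.4 and 61.4 CPM. The lymphatic sums therefore lean on Ccl21a, and a sum without it was not tested. Macrophage genes were above 0 in 11 of 12 (median 0.40, Fcgr1 0.74, Cd68 0.44), at 576 to 963 and 881 to 1109 CPM. The part of these cells in the adipocyte values was not tested.

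Cartilage genes were above 0 in 11 of 13 tested (median 0.23, Matn3 1.24, Col9a1 0.44), with sums of 1216 to 1548 CPM in controls and 1293 to 1836 CPM in lecko skin. Fibroblast genes were above 0 in 7 of 10 (median 0.03, Dcn 0.24, Pdgfra 0.23), with sums of 22396 to 35987 and 26904 to 29577 CPM. Keratinocyte genes were below 0 in 9 of 10 (median -0.10, Lor -0.20, Trp63 -0.19), with sums of 26906 to 30282 and 26802 to 28169 CPM. Schwann cell genes were below 0 in 8 of 8 (median -0.08, Cnp -0.14, Mal -0.13), with sums of 1417 to 1529 and 1308 to 1400 CPM. No marker of any of these lists was at 0 reads in all libraries.

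The genes whose library profile lay closest to the mean profile of the 10 adipocyte genes were Eps8l1, Fam220a, Stk40, Dyrk2 and Pnpla3. Likeness is the root mean square distance of centred log2 CPM over the 6 libraries, searched over 13572 genes, and was 0.02 for Eps8l1 to 0.04 for Pnpla3, beside a median of 0.17. Eps8l1 was at 139.6, 143.7 and 132.2 CPM in controls and at 131.9, 157.6 and 119.7 CPM in lecko libraries. Its highest library was lecko 2 and its lowest lecko 3, as in the mean profile that it was selected to match. A profile with no change at all lay at 0.13, so the mean profile is shallow. The 10 members themselves lay at 0.083 (Adipoq) to 0.28 (Retn) from it. Retn, Lep, Pparg, Plin4, Plin1 and Pnpla2 were farther from it than the unchanged profile. A gene close to the mean profile is therefore not close to each member.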

How the data were processed

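The authors deposited 1 table of 6 libraries holding estimated counts, and 9.60 to 10.5% of the values in a library are not whole, which is how the unit was recognised. GRCm38.p6, RSEM 1.3.1, HISAT2 2.2.1 and Bowtie2 2.4.5 appear in the submitters' processing notes, and the sources used here give neither their roles nor strand setting or annotation. Groups come from the sample titles. Counts were rounded, filtered with filterByExpr (minimum count 10, minimum total 15, leaving 14856 genes), scaled by TMM and fitted with edgeR 4.0.16 (robust quasi-likelihood test on group alone; R 4.3.3). P-values were adjusted over all genes tested by Benjamini-Hochberg, with a threshold of 0.05. Intervals are 95%. Log2 CPM used a prior count of 2. DESeq2 1.42.0 and limma-voom (limma 3.58.1) were alternatives, beside other scalings, filters, a replicate block, sex as a covariate (10 CPM over 4 Y-linked genes) and leaving out each library. Ratios to Plin1 were tested by exact permutation (SciPy 1.17.1).

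Lengths are the union of exons in GENCODE M21 (GRCm38), which may differ from the authors' annotation. Coordinates and promoters are RefSeq's for GRCm38.p6. Between libraries of the same group, counts varied 8.43 to 17.5 times as much as sampling alone gives, so all 6 were counted. The scripts were tested on simulated data.

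The 10 genes and all lists were chosen with earlier results of these data known. Named from each list were called genes or, failing these, the 2 with the smallest p, and by likeness the 5 nearest genes whose log2 CPM averaged 1 or more; others are said to be chosen later. One gene that this rule names is not reported here. The lists were other secreted products, uptake and synthesis, droplet, lipolysis, reception, regulator, progenitor and brown fat genes, and markers of 9 other cell types.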

Additional observations from a re-analysis of the deposited data

How the results depend on the processing

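Under all 16 alternatives 0 of the 10 genes were called, and the smallest adjusted p of any of them was 0.411 (Pnpla2 without control 2, by edgeR). The median log2 fold change of the 10 ran from -0.06 to -0.02 over the 10 alternatives that kept all libraries, and from -0.15 (without lecko 2) to 0.02 (without lecko 3) with a library left out. Pnpla2 and Cebpa stayed below 0 under all 16. Signs of the other 8, none of them called, turned as follows, and the cause was not tested. Retn was at -0.070 with limma-voom, -0.047 with a replicate block and -0.0038 with sex as a covariate, where Plin1 was at 0.096 and Lipe at 0.054. With a library left out the ranges were -0.12 to 0.19 for Adipoq, -0.35 to 0.098 for Lep, -0.44 to 0.27 for Retn, -0.39 to 0.091 for Plin1, -0.19 to 0.0023 for Plin4, -0.26 to 0.098 for Cidec, -0.080 to 0.041 for Lipe and -0.070 to 0.11 for Pparg. With Adipoq in place of Plin1, the lecko minus control differences in log2 ratio were -0.10 for Lep, -0.11 for Retn and -0.13 for Plin4. They were -0.14 for Cidec, -0.20 for Pnpla2, -0.073 for Lipe, -0.029 for Pparg and -0.096 for Cebpa. Only Pnpla2 kept the sign of its difference against Plin1.

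The replicate block called 0 of the 10 genes and the same number of genes overall as the fit without it, 2 higher and 1 lower. Deviations of same-numbered libraries from their group means correlated over genes at 0.34, -0.07 and 0.04. Not every library correlated best with its own number, so the numbers were not taken as a pairing. Replicate 2 was, however, the highest of both groups for Adipoq, Lep, Retn and Plin1, and the lowest of both for Pparg. With the block the SE fell from 0.15 to 0.08 for Adipoq, 0.29 to 0.16 for Lep, 0.33 to 0.21 for Retn and 0.25 to 0.12 for Plin1. For Pnpla2 and Cebpa it rose, to 0.082 and 0.069. The labels do not say whether a number marks a shared litter. Library size without muscle genes was used without TMM, which would otherwise cancel it. With sex as a covariate the group effect rests on control 1 against the 3 lecko libraries. Lep, with 76 to 153 reads, and Retn had the widest intervals of the 10 genes.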

Other observations

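Chosen after their values were seen, some other fat metabolism genes shared the high lecko 2 value of Adipoq, Retn, Plin1 and Cidec. Lecko 2 was the highest library for 6 and the lowest for 5 of the 22 uptake and synthesis genes, and for 0 and 5 of the 13 other droplet genes tested, beside 16.4% and 14.5% of all genes. Lpl, the lipase that frees fatty acids from blood lipoproteins, was at 236 CPM in lecko 2 and 167 to 213 CPM in the other 5 libraries. Gpd1, which supplies the glycerol backbone of triglyceride, was at 79.5 CPM against 53.8 to 63.3 CPM, and Agpat2, which adds the second fatty acid to it, at 45.1 against 31.5 to 38.3 CPM. By contrast Cd36, a fatty acid transporter, was lowest in lecko 2, at 176 CPM against 188 to 220 CPM. Fabp4, a fatty acid carrier of fat cells, was at 175 CPM in lecko 2, within the 175 to 181 CPM of controls. It was at 161 CPM in lecko 1 and 125 CPM in lecko 3, so lecko 2 was its highest lecko library.

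Other genes stood at their lowest in lecko 2, as Plin4 and Pparg did. Angptl4 was at 8.54 CPM there and 16.6 to 33.7 CPM elsewhere, and Pck1, a gluconeogenic enzyme also used in fat, at 7.91 against 11.0 to 15.6 CPM. Klf15, a glucocorticoid-responsive regulator, was at 19.3 against 28.5 to 40.4 CPM, and the thioesterase gene Acot1 at 61.7 against 92.2 to 114 CPM. Klf15, Pck1, Acot1 and Angptl4 gave no call between the groups by edgeR.

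Cidea and Elovl3, often listed as brown fat genes, were at 95.7 to 130 and 136 to 188 CPM in the same libraries in which Ucp1 had at most 5 reads.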
